A study of Mus musculus with 66 samples.

Results

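Baseline gene expression was described in C2C12 myoblasts that had received a control siRNA (siCtrl). The description used 4 of the 66 libraries of the series, chosen by their labels: 2 made by RNA-seq and 2 made by 3'READS, 1 of each in batch 1 and 1 of each in batch 2. No knockdown library was used. The RNA-seq table listed 9999 genes and that of 3'READS held 15777, of which 7701 were in both and 5899 had enough reads to be compared between the assays. The series as a whole addressed how Paf1C, a complex that travels with RNA polymerase II, acts on gene expression and on the choice of poly(A) (pA) sites in muscle cells. C2C12 is an established mouse line of muscle precursors, kept here as growing myoblasts, and the control siRNA had been applied at 50 nM for 48 h. All 4 libraries thus carry a transfection, come from 1 line and have no untransfected counterpart in this comparison. The labels do not say whether the batches were separate cultures, or whether RNA-seq and 3'READS of a batch were made from the same culture, so p-values measure only the spread between these libraries.

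Myoblasts are the dividing precursors of muscle fibres. They are marked by the transcription factors Myod1 and Myf5, and when they stop dividing they switch on Myog and then the genes of the contractile apparatus. The assays read different parts of an RNA. RNA-seq of RNA freed of rRNA samples fragments along the coding region, so its reads are divided by coding length (RPKM, reads per kilobase and per 1000000 mapped reads). As described, this method does not select RNAs by a poly(A) tail. 3'READS captures the end of RNAs that carry a poly(A) tail, gives 1 read per captured end, and a read counts as pA site-supporting (PASS) when it carries Ts of the tail that the genome does not encode. Its levels are therefore given as counts per 1000000 PASS reads (CPM), with no division by length.

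The siCtrl RNA-seq libraries held 6390653 and 5833976 reads in listed genes (batch 1 and batch 2) and the 3'READS libraries 7373720 and 9791152 PASS reads. A level of at least 1 RPKM was reached by 5619 and 5600 genes, at least 100 RPKM by 491 and 617, and at least 1000 RPKM by 18 and 32. In 3'READS, 10465 and 10748 genes reached 1 CPM, 1364 and 1573 reached 100 CPM, and 149 and 147 reached 1000 CPM. The 3'READS signal was the more concentrated on a few genes in batch 1, where the 100 highest genes took 43.8% of the reads, against 35.6% in batch 2 and 27.1% and 29.9% in RNA-seq. The shares of the assays are over unlike sets, 15777 genes listed in 3'READS and 9999 in RNA-seq. Of the 50 highest genes by CPM, only 17 were listed in RNA-seq. Genes of both tables held 47.8% and 48.8% of the PASS reads.

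The myoblast label rested on Myf5 more than on Myod1. Myf5 was read in all 4 libraries, at 28.2 and 31.4 RPKM and at 7.19 and 30 CPM, and its level did not differ between the assays beyond the spread (log2 ratio of 3'READS over RNA-seq -0.79, SE 0.61, adjusted p = 0.32 by edgeR's quasi-likelihood test). Myod1 was not listed in the RNA-seq table used here and had only 2 and 4 PASS reads, or 0.271 and 0.409 CPM. These values do not show that Myod1 was low. Genes can be missing from the RNA-seq table, and some with many RNA-seq reads had 0 PASS reads, such as Bag3 (1921 and 1414 RNA-seq reads). Myog, which marks the exit into differentiation, stood at 6.37 and 14.2 CPM. Pax7, the factor of muscle stem cells, had 340 and 35 RNA-seq reads (12.6 and 1.48 RPKM) and 0 PASS reads in both libraries. Pax7 was at least 44.7-fold lower in 3'READS, taken against a floor of 3 reads over both libraries, and its adjusted p was 0.00252 (edgeR).

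Muscle surface and intermediate filament genes were well above the level of the myogenic factors. Des, the intermediate filament of muscle, stood at 199 and 386 RPKM and at 1506 and 813 CPM. Cdh15, the cadherin of myoblasts, stood at 135 and 164 RPKM and at 89.6 and 707 CPM. Chrna1, a subunit of the muscle acetylcholine receptor, stood at 170 and 552 RPKM and at 131 and 351 CPM. All 9 genes of this group that were in both tables had at least 1 RPKM in both libraries. Markers of other cell types varied, and the few listed in RNA-seq for epithelium and leukocytes were mostly low there. Of 7 epithelial markers, 3 were listed in RNA-seq and summed to 0.216 and 0.261 RPKM, with Epcam at 0 reads. The 6 listed in 3'READS summed to 1.22 and 0.613 CPM. Krt18 had 0 PASS reads, which alone does not show a low level. The 3 leukocyte markers listed in RNA-seq summed to 9.59 and 8.97 RPKM, of which Cd14 made up 9.55 and 8.96. Of 6 leukocyte markers listed in 3'READS, 3 had at least 1 CPM in both libraries, while Itgam had 0 reads in all 4 libraries. Fibroblast and neuronal markers were not all low. Of 5 fibroblast markers listed in RNA-seq, 4 had at least 1 RPKM in both libraries, and of 4 neuronal markers 3 did. The fibroblast medians were 4.33 and 14.7 RPKM, beside 16.2 and 14.4 RPKM over all tested genes. Col3a1 and Stmn2 were the highest of these markers. Col3a1, a fibrillar collagen of connective tissue, stood at 302 and 284 RPKM, and Stmn2, a tubulin-binding protein known from neurons, at 77.2 and 149 RPKM. The adipocyte regulator Pparg stood at 11.1 and 17.1 RPKM, while Cidec was at 0 reads in all 4 libraries. The endothelial marker Kdr, with 0 and 2 RNA-seq reads, stood at 20.1 and 29.8 CPM.

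Among the 9999 genes listed in RNA-seq, the highest were led by cytoskeletal, secreted and ribosomal genes. Vim, the intermediate filament of mesenchymal cells, stood first with 4466 and 8248 RPKM. The calcium-binding S100a4 followed with 2883 and 5964 RPKM, and Anxa2, an annexin of the cell cortex, with 3527 and 4771 RPKM. Spp1 (osteopontin), a secreted matrix protein, was the most even of the leading genes, with 3841 and 4164 RPKM. Fth1, the ferritin heavy chain, had 1648 and 4241 RPKM and Actb, the main cytoplasmic actin, 1738 and 2277. Rplp1, Rpl35a and Rpl4 represented the ribosome and Eif5a, at 2393 and 2026 RPKM, the translation factors. Of the 15 highest genes, 13 had the higher value in batch 2, and Eif5a and the chaperone Hspa5 (2136 and 1291 RPKM) were the exceptions.

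**Figure D1:**
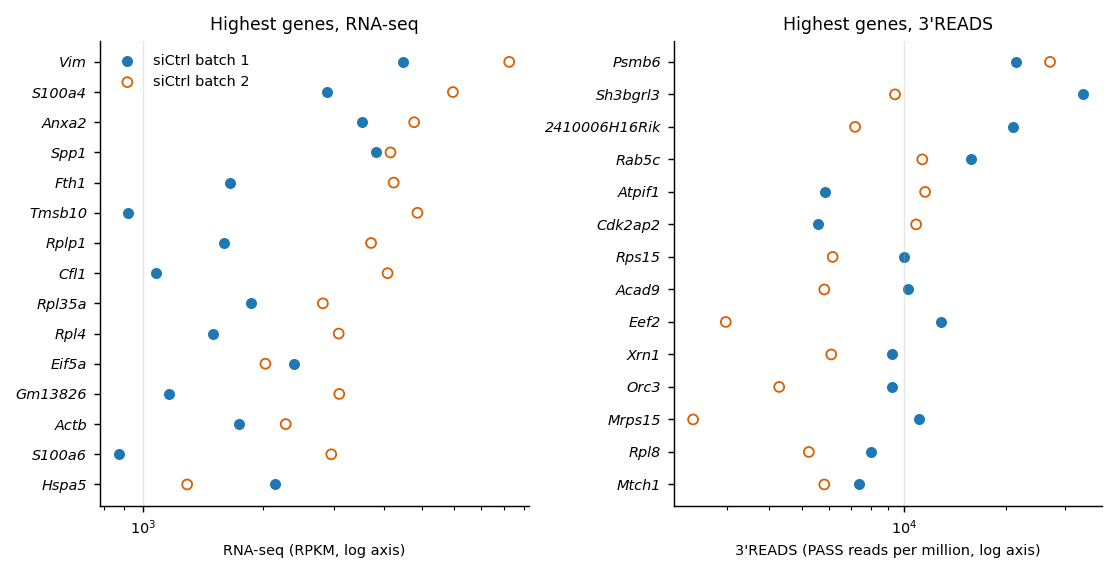
Levels of the 15 genes with the highest mean level in RNA-seq (left, RPKM) and of 14 of the 15 highest in 3'READS (right, CPM), both on log axes, with 1 filled point for siCtrl batch 1 and 1 open point for siCtrl batch 2. Vim leads on the left with 4466 and 8248 RPKM, Psmb6 has the highest mean on the right with 21451 and 27047 CPM, and no gene is in both panels. Most genes on the right are not listed in RNA-seq.

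The highest genes of 3'READS were others, most of them not listed in the RNA-seq table. Psmb6, Sh3bgrl3, Eef2 and Xrn1 were among those not listed, so their RNA-seq levels are not known here. Psmb6, a catalytic subunit of the proteasome, had 21451 and 27047 CPM, Sh3bgrl3 33811 and 9428 CPM, and Rab5c, a GTPase of early endosomes, 15839 and 11348 CPM. Eef2, the elongation factor that moves the ribosome along, had 12904 and 2985 CPM, and Xrn1, the main cytoplasmic 5'-3' exonuclease, 9251 and 6112. Of the 50 highest genes by RPKM, 49 were listed in the 3'READS table, but only 17 of the 50 highest by CPM were listed in the RNA-seq table. The 2 sets of 50 shared 3 genes. When both were drawn from the genes of both tables alone they shared 6, among them Actb, Anxa2, Fth1, Rhob and S100a6.

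The main pA site of a gene was taken as the site with the most PASS reads. The 30 bases that end at this site are shown for genes that mark the profile, from the mm9 genome on the strand of the transcript, with AATAAA, the canonical poly(A) signal, in capitals.
Vim: gttactgcttcAATAAAtcttcaaaaatac
Actb: AATAAAagtgcacaccttaccttacacaaa
Fn1: aagtgttttAATAAAaagatttacattcca
Myf5: ctattattatcAATAAAatatttaaaggag
These lie at chr2:13504424-13504453 (plus strand, Vim), chr5:143664796-143664825 (minus, Actb), chr1:71632096-71632125 (minus, Fn1) and chr10:106919967-106919996 (minus, Myf5), all in the 3'-most exon by the site classes of the table. The signal begins the Actb window and sits 13 bases from the site in Vim and in Myf5. Over all 5853 genes with a PASS read that were tested, 66% held AATAAA in the 40 bases before the main site, and a further 16.4% held ATTAAA without AATAAA (sense strand only).

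Genes of the dividing cell were expressed throughout, and those of the fibre were mostly low. Of 24 proliferation genes, all had at least 1 CPM in both 3'READS libraries, and all 9 that were in the RNA-seq table exceeded 1 RPKM. Top2a, the topoisomerase of dividing cells, stood at 215 and 232 RPKM and at 1871 and 1194 CPM, and Rrm2, which supplies deoxynucleotides, at 290 and 290 RPKM and at 213 and 208 CPM. Cdkn1a, the cell cycle inhibitor p21, was also present, at 318 and 222 RPKM and 183 and 205 CPM. The contractile genes ranged from near 0 to moderate. Myh1 had 0.039 and 0.143 RPKM and Ckm, the muscle creatine kinase, 0.196 and 0.95 RPKM. Tnnt2, a troponin made early in differentiation, had 27.8 and 66.1 RPKM and 18.3 and 44.8 CPM.

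Several matrix genes were above 100 RPKM. Fn1 (fibronectin) stood at 540 and 545 RPKM, Thbs1 (thrombospondin) at 638 and 238, and Timp1, an inhibitor of matrix proteases, at 234 and 494. The group summed to 6333 and 6313 RPKM, of which Spp1 alone held 3841 and 4164, and to 11733 and 11679 CPM. These near-equal sums hid moves of single genes in both directions, such as that of Thbs1 above and, in 3'READS, Lgals1 (5116 and 2452 CPM) and Sparc (505 and 1010 CPM). Among glycolytic enzymes Aldoa stood at 259 and 630 RPKM and Ldha at 285 and 374. Gapdh, often used as a reference gene, was listed at only 3.7 and 4.92 RPKM and 19.4 and 8.17 CPM. Only uniquely mapped reads were kept upstream, so genes with near-identical copies elsewhere in the genome, such as Gapdh, Actg1, Ppia, Ftl1, Mfap1b, the Prl2c genes and many ribosomal protein genes, have uncertain levels in both assays. The Paf1C subunits were moderate: Paf1 had 26.7 and 37.8 RPKM, Cdc73 27.5 and 23.5, Ctr9 19.7 and 22.9, and Ski8 (listed as Wdr61) 21.8 and 53.6, while Leo1 and Rtf1 were not listed in the RNA-seq table used here and stood at 4.34 and 10.9 CPM and at 25.9 and 39.8 CPM.

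The libraries of 1 assay ranked the genes alike, and those of different assays much less so. Over the 5899 genes compared, Spearman's rho was 0.933 between the RNA-seq batches and 0.924 between the 3'READS batches, but lay between 0.546 and 0.607 between RNA-seq and 3'READS libraries. With the mean of both batches it was 0.599. Among the 3669 genes of at least 10 RPKM it was 0.404, not comparable with 0.599 since the cut narrows the RPKM range. These are correlations across genes, which are not independent replicates and share their library and its depth, and no test was attached to them.

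Each gene was then tested for a difference between the assays, on its PASS reads against its RNA-seq reads per coding length (quasi-likelihood test of edgeR, Benjamini-Hochberg adjusted, called at an adjusted p under 0.05 and at least a 4-fold ratio). The ratio compares the share a gene takes of each assay, not numbers of molecules. Of 5899 genes, 866 (14.7%) were higher in 3'READS and 973 (16.5%) were higher in RNA-seq. Of these 1839 genes, 1837 lay on the same side in both batches. The calls were made on these same libraries and largely require such agreement, so this adds no independent support. The middle 50% of all genes lay between -1.39 and 1.26 on the log2 scale and 2325 genes (39.4%) were within 2-fold, around a median of -0.08. Without the TMM normalization, that is with library size alone, this median was -0.76, and the calls split into 511 higher in 3'READS and 1529 higher in RNA-seq. The share of genes called in either direction was 34.9% in the lowest of 5 equal classes of mean level, 24.2% in class 4 and 36.4% in the highest, where 307 genes were higher in 3'READS and 123 in RNA-seq.

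**Figure D2:**
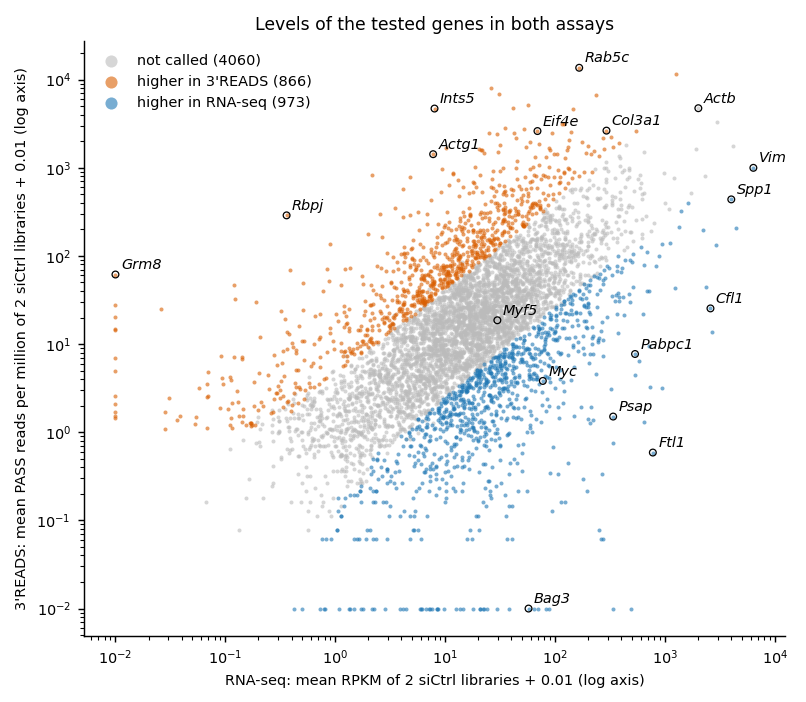
Mean level of each of the 5899 tested genes over the 2 siCtrl libraries of RNA-seq (horizontal, RPKM) and of 3'READS (vertical, CPM), with 0.01 added and both axes logarithmic. Orange points are the 866 genes called higher in 3'READS, blue points the 973 called higher in RNA-seq and grey points the 4060 not called, and the row of points at the bottom holds genes with 0 PASS reads.

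Among genes higher in 3'READS, the most extreme combined many PASS reads with few or no reads in the coding region. Grm8, a metabotropic glutamate receptor, had 0 RNA-seq reads in both libraries and 603 and 402 PASS reads, all at 1 intronic site. From reads pooled over both libraries, its level was at least 1689-fold higher in 3'READS, against the floor of 3 reads. The edgeR fit, with its prior count, gave a smaller log2 ratio of 9.70 (adjusted p = 0.000109). Asb18 also had 0 RNA-seq reads, with 216 and 256 PASS reads (at least 408-fold higher), and so did Mfap1b, with 102 and 266 (at least 299-fold higher). In all, 12 of the 866 genes had 0 RNA-seq reads. Kdr, the VEGF receptor of endothelial cells, had 0 and 2 RNA-seq reads and 148 and 292 PASS reads. Its pooled ratio was 1668, with a counting interval from 462 to 13773, and its fitted log2 ratio was 8.48. Of the other endothelial markers, Pecam1 had 0 PASS reads and Cdh5 stood at 1.08 and 0.919 CPM and at 0.024 and 0.136 RPKM.

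The other named genes of this set had reads in all 4 libraries, some of them few in RNA-seq. Acad9, a mitochondrial protein needed for assembly of complex I, had 791 and 840 RNA-seq reads (23.7 and 28.6 RPKM) but 75958 and 57078 PASS reads (10301 and 5830 CPM). Its log2 ratio was 8.24 (SE 0.80, edgeR adjusted p = 0.000114), and both 3'READS libraries lay far above both RNA-seq libraries. Ints5, a subunit of the Integrator complex, had 9.05 and 6.91 RPKM against 4736 and 4636 CPM, with log2 ratios of 9.13 and 9.17 in the batches. Orc3 of the origin recognition complex had 26.1 and 36 RPKM against 9247 and 4290 CPM, and Rbpj, the DNA-binding partner of Notch, 14 and 5 RNA-seq reads (0.498 and 0.203 RPKM) against 159 and 417 CPM. Actg1, the other cytoplasmic actin, was listed at 6.03 and 9.48 RPKM and at 1506 and 1341 CPM (log2 ratio 7.44, SE 0.73, edgeR adjusted p = 0.000118). The related Actb stood at 2061 and 7398 CPM and did not pass (log2 ratio 1.11, adjusted p = 0.185). Ppip5k2, a kinase of inositol pyrophosphates, was uneven between the 3'READS libraries, with 1286 and 30911 PASS reads, and its log2 ratio was 3.94 in batch 1 and 8.36 in batch 2. Lpar2, a lysophosphatidic acid receptor, had 54 and 22 RNA-seq reads (2.9 and 1.35 RPKM) against 1386 and 286 CPM, and Sord, sorbitol dehydrogenase, 4.81 and 4.71 RPKM against 1088 and 496 CPM.

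The last 30 bases before the main pA site are given for the 12 most extreme members, in mm9 on the strand of the transcript, because 3'READS rests on this position. Capitals mark AATAAA or ATTAAA, where the window holds it.
Grm8: aatggttAATAAActgcacagtgctgttgg
Ints5: attttttctaAATAAAatttgccgagttga
Lpar2: tcttaaggcATTAAAgcatctgtttcttaa
Kdr: aaaccAATAAAcgtattctgagtaaagaga
Actg1: taaagaAATAAAagtgctgcagtaactgac
Sord: AATAAActgttgatggtgtccgactccgta
Asb18: gtacttacatacaataataAATAAAtcttt
Mfap1b: tgtgttttaaAATAAAgtctcactaatcta
Ppip5k2: gaatgaATTAAAattctttttagaataaga
Rbpj: gctatggttctatgtcagactcctaccaca
Acad9: aatcccttcttgagtgttttaaacttcaaa
Orc3: aatgcataaagcctttatatgttatcagta
The windows lie at chr6:27383361-27383390 (minus strand, in an intron of Grm8), chr19:8972343-8972372 (plus, Ints5), chr8:72351994-72352023 (plus, Lpar2), chr5:76328852-76328881 (minus, Kdr), chr11:120207003-120207032 (minus, Actg1), chr2:122091053-122091082 (plus, Sord), chr1:91843399-91843428 (minus, Asb18), chr2:121286695-121286724 (minus, Mfap1b), chr1:99602736-99602765 (minus, Ppip5k2), chr5:54047257-54047286 (plus, Rbpj), chr3:35990353-35990382 (plus, Acad9) and chr4:34518045-34518074 (minus, Orc3). Apart from Grm8, these sites are in the 3'-most exon. The letters AATAAA or ATTAAA are in 9 of these 12 windows and in none of those of Rbpj, Acad9 and Orc3.

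Among genes higher in RNA-seq, the most extreme had many coding reads and almost no PASS reads. Gm6251 had 2552 and 3963 RNA-seq reads and 0 PASS reads in both libraries, at least 2922-fold higher in RNA-seq from pooled reads (fitted log2 ratio -10.94). Prl2c3, of the proliferin family, had 1371 and 5814 and 0 PASS reads (at least 1919-fold, fitted log2 ratio -10.75). Bag3, a co-chaperone of Hsp70 in muscle, had 1921 and 1414 RNA-seq reads and Hnrnph2, a splicing regulator, 1454 and 1419, again with 0 PASS reads (at least 347-fold and 384-fold). In all, 46 of the 973 genes had 0 PASS reads. Atxn2l, a protein of stress granules, had 5967 and 3940 RNA-seq reads (106 and 80.1 RPKM) and 1 PASS read in each library, a ratio of 851 with a counting interval from 235 to 7024. Tarbp2, a partner of Dicer, had 1507 and 7283 RNA-seq reads and 1 and 0 PASS reads (ratio 4330, interval 777 to 171034). Ftl1, the ferritin light chain, stood at 469 and 1079 RPKM against 0.136 and 1.02 CPM (log2 ratio -9.97, SE 0.97, edgeR adjusted p = 0.000114), whereas Fth1, its heavy chain partner, had almost equal levels by both assays (0.03, SE 0.64, adjusted p = 0.971). Fxr2, of the fragile X family of RNA-binding proteins, had 4838 and 3555 RNA-seq reads against 0 and 3 PASS reads. Drap1, a repressor of transcription, had 2200 and 3155 against 0 and 1, Psmb7 of the proteasome 1441 and 3780 against 0 and 4, and Rps19 1212 and 2604 against 4 and 1.

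Members of the gene groups and of the highest genes were also among those higher in RNA-seq. Myc, a transcription factor of cell growth, was at 74.6 and 79.9 RPKM but at 3.12 and 4.49 CPM (log2 ratio -4.36, edgeR adjusted p = 0.00028). Cfl1 (cofilin), which severs actin filaments, was at 1081 and 4094 RPKM and at 13.6 and 37.1 CPM (-6.79, adjusted p = 0.000338), and Tmsb10, a thymosin that binds actin monomers, at 917 and 4862 RPKM and 81.8 and 182 CPM (-4.57). Their RNA-seq levels lay above their 3'READS levels in both batches. Vim, the first gene by RPKM, was also called, at 615 and 1378 CPM (-2.78, SE 0.65, adjusted p = 0.00563, edgeR), as were S100a4 (-4.49) and Spp1 (-3.26).

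Windows before the main pA site are shown for members of this set that had more PASS reads to define one (capitals as above, mm9). They were chosen after their values were seen, to show windows with and without the letters.
Cfl1: aaaaaacAATAAAaaggctaattaacaaca
Calu: catccttATTAAAaataatcatcatcatca
Psap: tgacttAATAAAgttctgttaaccaacaga
Chchd1: ctgtcttgaAATAAAatcctctaaaaagaa
Rplp1: ataaagagctgaacctgtaggtggactggt
Nop56: aaaaacacaaaaccagatagtatgtgtgta
The windows are on the plus strand at chr19:5494004-5494033 (Cfl1), chr6:29325844-29325873 (Calu, a calcium-binding protein of the secretory pathway), chr10:59765319-59765348 (Psap, the precursor of the saposins), chr14:21523618-21523647 (Chchd1) and chr2:130105028-130105057 (Nop56, a core protein of box C/D snoRNPs), and on the minus strand at chr9:61761079-61761108 (Rplp1). The signal letters are in 4 of these 6 windows, and all 6 sites are in the 3'-most exon.

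Sites of the called genes were then compared with those of genes not called, as a description. In the 40 bases before the main site, 85.7% of the 866 genes higher in 3'READS held AATAAA or ATTAAA, against 82.7% of 4060 genes not called and 77.9% of the 927 genes higher in RNA-seq that had a PASS read. The main site was intronic in 6.93%, 4.93% and 10.7%. The mean number of As in the last 10 bases was 3.26, 3.47 and 3.98. The genes higher in 3'READS had fewer sites, with a mean of 2.35 against 3.38 and 3.23. A site within 50 bases of an annotated transcript end was found for 86.3%, 90.8% and 89%. The called groups also differ in PASS reads, because the calls rest on them. A main site can rest on few reads, as in Tarbp2 (1 and 0 PASS reads). In the full 3'READS table a signal was found for 92% of genes at CPM ranks 1 to 50. The share was 93.3% at ranks 51 to 200, 87.5% at 201 to 1000 and 79.4% at 3001 to 13789. Whether PASS level accounts for the differences between the groups was not tested.

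A CG dinucleotide was looked at only after the values were seen. A CG in the last 20 bases before the main site was found in 20.7% of the genes higher in 3'READS, in 13.9% of those not called and in 7.77% of those higher in RNA-seq. Over the whole 3'READS table the share was 24% among the 50 genes of highest CPM, 21.1% among ranks 201 to 1000 and 13.6% below rank 3000. Of the 50 highest genes, 44 had a single pA site, against 394 of 800 in ranks 201 to 1000 and 3403 of 10789 below rank 3000. The windows of 2 of them are shown with each CG in capitals (mm9), picked because each holds 3, whereas 12 of the 50 hold any.
Rab5c: tcaatatagtcagcCGatCGatCGacctca
Xrn1: ttgattaaagatggaatgaCGaCGaCGgta
They lie at chr11:100576580-100576609 on the minus strand and chr9:95958190-95958219 on the plus strand. Rab5c, with 133 and 198 RPKM against 15839 and 11348 CPM, had a log2 ratio of 6.32 (SE 0.72, edgeR adjusted p = 0.000173). Xrn1 was not listed in the RNA-seq table used here.

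Gene groups differed in how their members split between the assays. Translation factors leaned to RNA-seq: 8 of 12 tested were higher there and 1 in 3'READS, with a median log2 ratio of -2.75, beside 16.5% and -0.08 over all genes. Pabpc1, the cytoplasmic poly(A)-binding protein, stood at 539 and 527 RPKM and at 5.7 and 9.7 CPM (log2 ratio -6.17, edgeR adjusted p = 0.000155). Eif4g1, the scaffold of the cap-binding complex, stood at 172 and 106 RPKM and 7.05 and 0.817 CPM (-5.11, adjusted p = 0.00173). The exception was Eif4e, which binds the cap itself, with 63.8 and 74.3 RPKM and 2285 and 2923 CPM (5.16, adjusted p = 0.000229). The median of the group stayed below that of all genes under each scaling tried, from -3.43 with library size alone to -2.43 without length scaling.

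Of 39 oxidative phosphorylation genes, 14 (35.9%, against 16.5% of all genes) were higher in RNA-seq and 2 (5.13%, against 14.7%) higher in 3'READS, with a median of -1.51. Cox8a, a small subunit of cytochrome oxidase, had 738 and 1137 RNA-seq reads and 0 and 1 PASS reads, and Sdhd, a membrane anchor of complex II, 638 and 1027 against 1 and 5. Atp5g2, a copy of the c subunit of ATP synthase, had the reverse, with 22 and 8 RNA-seq reads and 1989 and 846 PASS reads (log2 ratio 6.33, edgeR adjusted p = 0.000291). Ndufa8 of complex I, the other gene higher in 3'READS, stood at 575 and 517 RPKM and 1402 and 3881 CPM (2.17, adjusted p = 0.0158). The median of the group was -0.86 in batch 1 and -2.20 in batch 2. Without length scaling it was -0.21, against -0.08 over all genes, and with library size alone -2.16, against -0.76. The size of the lean thus varied with the batch and with length scaling.

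Ribosomal protein genes went both ways, with 11 of 36 (30.6%) higher in RNA-seq and 6 (16.7%) higher in 3'READS, beside 16.5% and 14.7% of all genes. Rplp1, of the ribosomal stalk, had 9801 and 20053 RNA-seq reads and 123 and 108 PASS reads (log2 ratio -7.60, edgeR adjusted p = 0.000149). Rpl31 had 697 and 755 RNA-seq reads and 27632 and 24818 PASS reads (4.73, adjusted p = 0.000393). The median, -0.39, turned to 1.09 without length scaling and to 0.07 with the length trend removed, so no direction is given for the group.

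The remaining groups had 14 or fewer genes tested, and their counts are to be read against the 14.7% and 16.5% of all genes. None of 14 differentiation genes was higher in 3'READS and 2 were higher in RNA-seq, Tnni1 and Myl1, with a median of 0.06. Of 9 surface and cytoskeletal genes of myoblasts (median 0.96), Myof, a ferlin of fusing myoblasts, was higher in 3'READS (log2 ratio 2.79, edgeR adjusted p = 0.00269) and Sdc4 and Cav1, a syndecan and a caveolin, were higher in RNA-seq (-2.42 and -3.42). Matrix genes split 3 and 3 among 14, with Col3a1, Tnc and Lox higher in 3'READS and Spp1, Postn and Dcn higher in RNA-seq. Of 12 actin cytoskeleton genes, Actg1 and Tpm3 were higher in 3'READS and Cfl1, Tmsb10 and Vim in RNA-seq. Of 9 proliferation genes, Mcm2 and Top2a were higher in 3'READS and Ccne2 in RNA-seq, and of 9 glycolysis genes Hk1 and Pgk1 were higher in RNA-seq. Among 4 genes of cell cycle exit (median 2.17), Gas1 (3.09) and Rb1 were higher in 3'READS. Rb1, the retinoblastoma protein, stood at 11.4 and 10.1 RPKM and 368 and 910 CPM (5.78, adjusted p = 0.000198, edgeR). The 11 cleavage and polyadenylation factors had a median of 0.39, with Cpsf7 (3.15) and Wdr33 (2.61) higher in 3'READS and Sympk (-2.58) higher in RNA-seq, and Ctr9 (2.93, adjusted p = 0.00234) was the 1 of 4 Paf1C subunits that passed. Of 10 reference genes, 7 did not pass, and Ppia, Ywhaz (both higher in 3'READS) and Gusb (41.4 and 56 RPKM, 0.678 and 2.14 CPM, higher in RNA-seq) did.

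**Figure D3:**
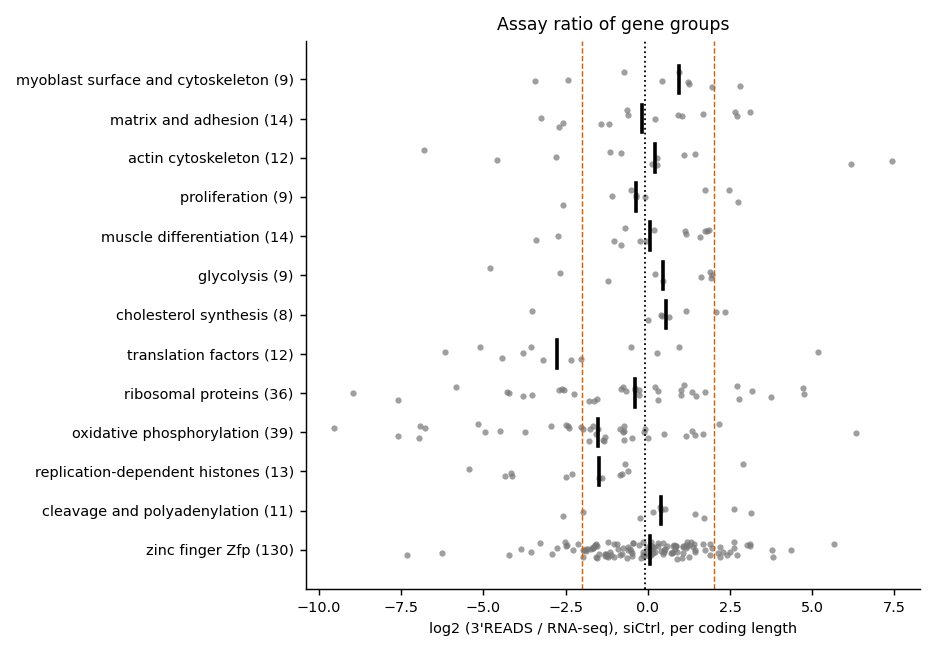
Log2 ratio of 3'READS over RNA-seq per coding length in siCtrl for the tested genes of 13 groups (1 point per gene, number tested in brackets), with a black bar at the group median, a dotted line at the median of all genes (-0.08) and dashed lines at 4-fold. Translation factors (median -2.75), oxidative phosphorylation (-1.51) and replication-dependent histones (-1.49) have the lowest medians, and single genes of several groups lie more than 4-fold to either side.

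The assay ratio varied with coding length, more so in batch 2 than in batch 1. In 5 equal classes of length with medians of 570, 1005, 1443, 2043 and 3397 bases, the median log2 ratio over both batches was -0.50, -0.34, -0.09, 0.01 and 0.49. In batch 1 these medians were -0.18, -0.26, -0.10, -0.13 and 0.20. In batch 2 they were -0.76, -0.41, -0.09, 0.10 and 0.80. The share of genes higher in RNA-seq went from 22.6% in the shortest class to 10.2% in the longest, and the share higher in 3'READS from 12.4% to 19.1%. The spread within each class was wide. Spearman's rho of the ratio with length was 0.153 over the 5899 genes.

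Replicate libraries were compared by batch, in 1 fit over both assays. At an adjusted p under 0.05 (edgeR's quasi-likelihood test, with assay as a block), 3 genes (0.0509%) were higher and 3 (0.0509%) lower in batch 2, and at an unadjusted p under 0.05 the numbers were 241 and 152. Glipr1 rose from 40 to 346 RNA-seq reads and from 12 to 159 PASS reads (log2 3.14, SE 0.64, adjusted p = 0.00896). Col8a2, a collagen of basement membranes, fell from 190 to 14 and from 262 to 54 reads (log2 -3.07, SE 0.62, adjusted p = 0.00896). Plec (plectin), which links intermediate filaments to other structures, fell from 33161 to 9821 RNA-seq reads and from 824 to 4 PASS reads (log2 -4.35, adjusted p = 0.0291). Ereg, a ligand of the EGF receptor, had 1075 and 79 RNA-seq reads and 20 and 1 PASS reads (log2 -3.40, adjusted p = 0.00474), and Sncg (3.58) and Cpn1 (3.59) were higher. Ereg, Sncg and Cpn1 had under 50 reads in a library of the higher batch. These calls were lost when the assay block was left out and when only sites of the 3'-most exon were counted, where 0 genes passed in either direction. The log2 shifts themselves hardly moved with the 3'-most exon alone (Glipr1 3.13, Col8a2 -3.07, Plec -4.36, Ereg -3.41), and without the block that of Plec was -2.39.

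The batches moved differently in the 2 assays. For the 5559 genes that averaged 20 or more reads over the 4 libraries, the log2 shift from batch 1 to batch 2 in RNA-seq and in 3'READS had a Spearman's rho of 0.076, and 52.1% of the genes shifted the same way. Its SD over genes was 0.84 in RNA-seq and 1.13 in 3'READS. In RNA-seq the shift depended on coding length, with medians of 0.54, 0.19, -0.01, -0.18 and -0.48 from the shortest to the longest class and a Spearman's rho of -0.427. In 3'READS the same medians were 0.09, 0.07, 0.04, 0.01 and 0.09 and the rho was -0.006. RNA-seq batch 2 thus gave relatively more reads to short genes than batch 1, a difference that the 3'READS libraries of the same batch numbers did not have.

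**Figure D4:**
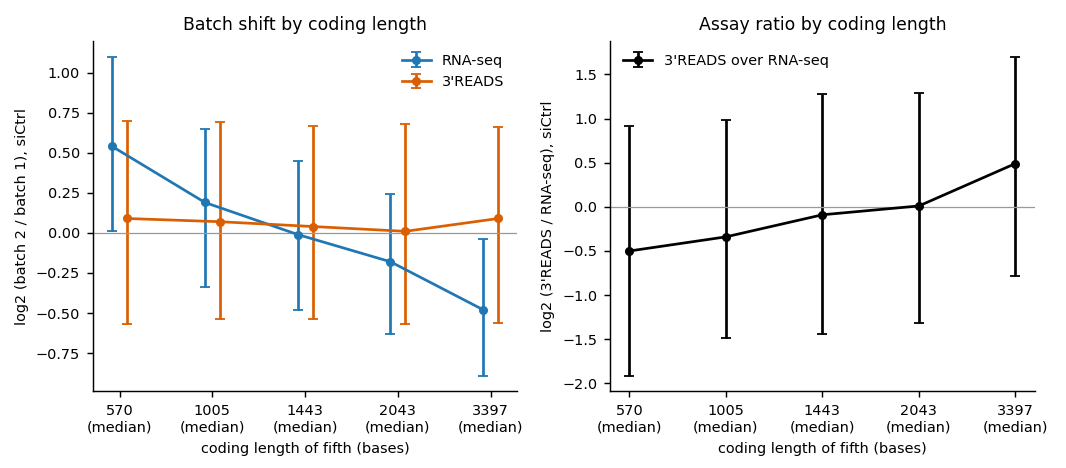
Median over genes in 5 equal classes of coding length (horizontal, median length in bases) of the log2 shift from siCtrl batch 1 to batch 2 in RNA-seq and in 3'READS (left) and of the log2 ratio of 3'READS over RNA-seq (right), with bars from the lower to the upper quartile of genes. The RNA-seq shift falls from 0.54 to -0.48 while that of 3'READS stays between 0.01 and 0.09. The assay ratio over both batches goes from -0.50 to 0.49 (-0.18 to 0.20 in batch 1 and -0.76 to 0.80 in batch 2).

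Most muscle differentiation genes had higher values in batch 2, though none passed the batch test. Of 12 with enough reads, 11 had higher values in RNA-seq, 9 in 3'READS and 8 moved the same way in both assays, with median log2 shifts of 1.52 and 1.31, against -0.03 and 0.06 over all 5559 genes. Mylpf, a fast myosin light chain, went from 10.1 to 71.6 RPKM and from 36.9 to 167 CPM. Actc1, the cardiac actin that is also made in young muscle, went from 2.03 to 7.34 RPKM and from 0.136 to 5.62 CPM, and Tnni1, a slow troponin, from 5.68 to 21.9 RPKM and from 0.271 to 2.14 CPM. Eno3, the muscle enolase and the highest member, went from 212 to 440 RPKM but from 448 to 313 CPM, Tnnc1 and Mybph were also lower in batch 2 by 3'READS, and Neb was lower by RNA-seq. The lowest adjusted p of the group was that of Mylpf, 0.105 (edgeR). Myf5 moved less in RNA-seq (0.23) than in 3'READS (1.81).

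Replication-dependent histone genes, whose mRNAs end in a stem-loop and normally carry no poly(A) tail, had the largest median RNA-seq shift of the groups described here. All 10 with enough reads were higher in batch 2 by RNA-seq, with a median shift of 4.85, and their summed level went from 21.4 to 575 RPKM. By 3'READS 4 of the 10 were higher, the median shift was -0.21 and the sum went from 106 to 115 CPM. Whether both RNA-seq libraries kept RNAs without a tail to the same extent was not tested. Hist1h1d, a linker histone, had 28 and 1802 RNA-seq reads but 10 and 25 PASS reads, and Hist1h4a had 3 and 261 against 10 and 13. For single genes the batch test over both assays did not reach the threshold, the lowest adjusted p being 0.0764 for Hist1h1d (edgeR). The assay ratio of the group differed by batch, with a median of 1.37 in batch 1 and -2.72 in batch 2. Of 13 genes, 4 (30.8%, against 16.5% of all genes) were called higher in RNA-seq. Hist2h2be alone (7.69%, against 14.7%) was called higher in 3'READS. The median over both batches, -1.49, turned to 0.42 without length scaling.

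Most oxidative phosphorylation and ribosomal protein genes were higher in batch 2 by RNA-seq and not by 3'READS. In RNA-seq 35 of 37 and 30 of 35 were higher in batch 2 (medians 0.97 and 0.70), and in 3'READS 18 of 37 and 11 of 35 (medians -0.06 and -0.20). Their median coding lengths were 441 and 474 bases, that of the histones was 393 and that of the differentiation genes 802, against 1452 for all tested genes. The length trend given above thus moved with these groups, and its part in their shifts was not tested.

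**Figure D5:**
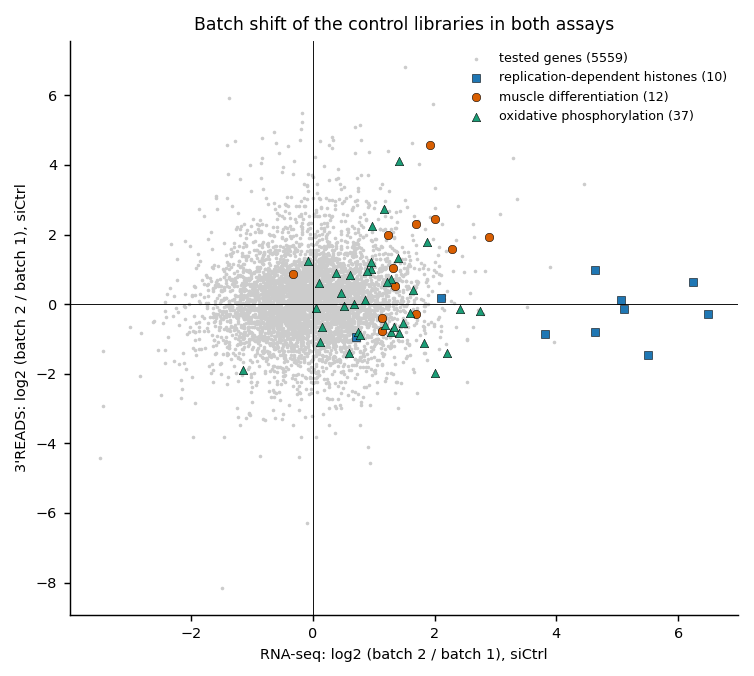
Log2 shift from siCtrl batch 1 to batch 2 of 5559 genes in RNA-seq (horizontal) and in 3'READS (vertical), with replication-dependent histones as squares, muscle differentiation genes as circles and oxidative phosphorylation genes as triangles. The histones spread to the right with a median of 4.85 in RNA-seq and -0.21 in 3'READS, while the differentiation genes lie mostly in the upper right (medians 1.52 and 1.31).

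Genes listed in 1 table only were not compared. The most read genes listed only in RNA-seq were Gm13826 (6074 and 14230 reads), Setd1b, a histone H3 lysine methyltransferase (1450 and 364), Kifc1, a mitotic kinesin (905 and 781), Prl2c2 (484 and 1166) and Bbip1 (554 and 1015). On the 3'READS side they were Psmb6 (158177 and 264825 PASS reads), Sh3bgrl3, 2410006H16Rik (154641 and 70365), Atpif1, the inhibitor of mitochondrial ATP synthase (43161 and 113258), and Cdk2ap2 (41067 and 106555). In all, 8076 genes were listed only in 3'READS and 2298 only in RNA-seq.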

How the data were processed

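The 4 siCtrl libraries were grouped by their labels, with 0 sample columns unmatched. For RNA-seq, the authors deposited raw read counts and RPKM values per RefSeq transcript: per their methods, rRNA was removed, stranded libraries were mapped to mm9 with bowtie2, uniquely mapped reads were kept and only coding regions were counted. For 3'READS the authors deposited raw counts of PASS reads per pA site. Versions of upstream tools are not given in the sources used here.

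Here, the transcript with the highest siCtrl count stood for each gene, sites other than upstream antisense ones were summed per gene, and tables were joined by gene ID. Coding length came from count and RPKM, or for 919 genes from the annotation, and 71 genes had none. R 4.3.3 with edgeR 4.0.16 tested the counts with a length offset for RNA-seq, TMM normalization, its filter on low counts (minimum 10) and a prior count of 2. The assay fit had no block. Batch numbers pair the libraries across assays by the labels, and the batch shifts of the assays correlated with r of 0.093 over 5559 genes. Single-library log2 ratios had 0.5 added. Fold bounds, and ratios with an interval, come from reads pooled over both libraries of an assay. They can exceed the fitted log2 ratios, which carry the prior count. Poisson intervals (95%) cover counting error only. Sequences came from a genome of the same build, read with pysam 0.24.0. The scripts were tested on simulated data.

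Genes were named as the 15 highest per assay, the 12 most extreme called genes per direction with at least 50 reads in each library of the higher assay and the same side in both batches, up to 8 batch genes per direction under the same minimum, the 5 most read genes of each table alone, and examples from 28 gene groups. The members and groups were chosen with earlier results of these data known. A few genes that these rules name are not reported here. Alternatives covered normalization, DESeq2 1.42.0, filters, transcript and site choice, length scaling and leaving out libraries.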

Additional observations from a re-analysis of the deposited data

Results flagged for a closer look

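Upstream antisense PASS reads, which no comparison above used, came to 11798 in siCtrl batch 1 and 13529 in batch 2.

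Several gene groups shifted between the batches to a different extent in 3'READS than in RNA-seq. The median shift in 3'READS lay below that in RNA-seq by the following log2 differences: -5.06 for replication-dependent histones, -1.03 for oxidative phosphorylation, -0.99 for cholesterol synthesis, -0.90 for ribosomal proteins and -0.35 for translation factors. It lay above it by 0.60 for matrix and adhesion genes and by 0.35 for surface and cytoskeletal genes of myoblasts. With 1 library of each assay in each batch, these differences were not tested.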

How the results depend on the processing

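With library size alone, 511 genes were higher in 3'READS and 1529 in RNA-seq, and with at least 20 reads required in every library, 584 of 4336 tested were higher in 3'READS and 506 in RNA-seq, so that the larger side turned from the 866 and 973 given above, a setting that drops genes near 0 in 1 assay. With the batch as a replicate block, the numbers were 888 and 1009, of which 853 and 953 were also called without the block. Leaving out 1 library in turn gave 631 to 898 genes higher in 3'READS and 820 to 1173 higher in RNA-seq, the lone library of an assay being assumed to vary like the other pair. DESeq2 gave 903 and 948. All 24 extreme genes named for the assays kept their calls wherever a value could be had, which was 7 of them at 20 reads in every library and 23 with sites of the 3'-most exon only. These genes were picked as the most extreme in the same libraries, so this adds no independent support. The rank correlation of the assays was 0.564 without length scaling.

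Genes higher in batch 2 numbered 0 with library size alone, 0 with sites of the 3'-most exon only and 0 without the assay block, and genes lower numbered 0 under the last 2 of these settings (cause not tested), while the shift of Glipr1, 3.14 as reported, was 2.99, 3.13 and 3.17 there. Sncg and Cpn1 also lost their calls under DESeq2 and with no filter on low counts. Leaving out a library from the batch fit left no residual degrees of freedom and was not tested. With 2 libraries per assay, the smallest assay ratio with an adjusted p under 0.05 was 1.33 on the log2 scale, below the 4-fold ratio that a call also required.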

Other observations

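Several RNAs that are known to lack a poly(A) tail, or to end by another route in some of their forms, had PASS reads. Malat1, whose end is a triple helix, stood at 173 and 104 CPM (batch 1 and batch 2), Neat1 at 45.4 and 19, and Rpph1, the RNA of RNase P, at 62.1 and 22.6, while Terc, the telomerase RNA, had 0 PASS reads in both libraries. None of them is listed in the RNA-seq table used here, in which 0 genes had a non-coding accession, so their RNA-seq levels are not known. H19, an imprinted non-coding RNA that is abundant in muscle precursors, stood at 1601 and 1549 CPM, whereas its neighbour Igf2 was near 0 by both assays (0.878 and 0 RPKM, 0.814 and 0.511 CPM). Peg10 had 39.8 and 11.4 RPKM and 80.3 and 91.1 CPM, and Igf2r, the receptor that clears Igf2, had 22.3 and 6.82 RPKM and 2.44 and 2.25 CPM (higher in RNA-seq, log2 ratio -2.66, edgeR adjusted p = 0.00803).

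Among 130 tested zinc finger genes of the Zfp series, 16 (12.3%) were higher in 3'READS and 13 (10%) higher in RNA-seq, beside 14.7% and 16.5% of all genes, with a median log2 ratio of 0.07. Zfp706 had 19 and 24 RNA-seq reads and 1710 and 3947 PASS reads (5.66, edgeR adjusted p = 0.000173), and Zfp623 had 1184 and 643 RNA-seq reads and 0 and 2 PASS reads (-7.33, adjusted p = 0.000149). Interferon response genes varied in these transfected cells. Of 8 listed in RNA-seq, 5 had at least 1 RPKM in both libraries. Their medians were 2.6 and 1.51 RPKM, beside 16.2 and 14.4 RPKM over all tested genes. Of 13 listed in 3'READS, 5 had at least 1 CPM in both libraries. At the low end, Ifit3 stood at 0.417 and 0.211 RPKM and Mx2 had 0 PASS reads, which alone does not show a low level. Of the serum response genes, Ctgf, at 89.7 and 274 RPKM and 13.7 and 23 CPM, was higher in RNA-seq (-3.40, adjusted p = 0.00243, edgeR). Of 8 cholesterol synthesis genes, 2 were higher in 3'READS, Insig1 (2.36) among them, and Fdft1 (-3.53) was higher in RNA-seq.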
